A study of Homo sapiens with 24 samples.

Results

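Deletion of HAR123 was compared with the intact human element in neuroectoderm after 5 days of differentiation. The 6 libraries, 3 of HAR123-KO and 3 of hHAR123, were taken by their labels from a series of 24 libraries that covers 4 genotypes at 2 stages. All cells were H9 (WA09), an established human embryonic stem cell (hESC) line. The hHAR123 cells were unedited, and the HAR123-KO cells had lost the element from both alleles through CRISPR editing. Both groups received the same induction, with 500 ng/ml Noggin, an inhibitor of BMP signaling, 10 µM SB431542, an inhibitor of activin and Nodal receptors, and 10% knockout serum replacement. Per the study, a pair of independent clones of every genotype went into the sequencing, so that some of the 3 libraries of a group share a clone. The sources used here do not tie a library to a clone, and the p-values measure the spread between libraries, part of which may be technical.

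HAR123 is a human accelerated region, a stretch of DNA conserved among mammals in which the human sequence has changed unusually fast. It lies in an intron of SMG6, which encodes an endonuclease of nonsense-mediated RNA decay (NMD), and the study examines it as an enhancer active in neural progenitors. Neuroectoderm is the tissue from which the neural plate arises. Inhibition of BMP and of activin and Nodal signaling turns pluripotent cells toward an anterior neural fate, whereas Wnt, BMP, FGF and retinoic acid signals shift neural tissue toward posterior or dorsal identities. At the dorsal edge, the neural plate border gives rise to the neural crest, a migratory population, and the dorsal midline of the neural tube becomes the roof plate.

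The 6 libraries held between 21022748 and 24468989 counts (median 23725674), and 21362 genes had enough counts to be tested. Replicates of a group differed by more than sampling noise (chi-square over its degrees of freedom, 1.41 to 3.56), and none was a copy of another. The genes PAX6, SOX1 and NES, which mark neural progenitors, were present in both genotypes. PAX6 was at 448 ± 4.47 CPM in hHAR123 and 228 ± 3.60 CPM in HAR123-KO (mean ± SD, n = 3 here and below), and NES at 1284 ± 20.2 CPM in hHAR123 and 517 ± 5.72 CPM in HAR123-KO. CPM are the counts of a library scaled to one common total. The pluripotency gene POU5F1 was at 15.4 ± 0.933 CPM in hHAR123 and 10.4 ± 0.475 CPM in HAR123-KO. Many markers of other germ layers were at or near 0, with at most 3 counts in every library for 6 of the 16 mesoderm genes and 7 of the 14 endoderm genes listed. Mitochondrial transcripts took 2.16% to 2.21% of the counts in hHAR123 and 2.55% to 2.63% in HAR123-KO, and their part in the results below was not tested.

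A gene was called when edgeR's quasi-likelihood F test gave an adjusted p under 0.01 and the absolute log2 fold change was over 1. By this rule 1052 genes rose and 966 fell in HAR123-KO neuroectoderm, which is 4.92% and 4.52% of the genes tested and 9.45% together. The log2 fold change is of HAR123-KO over hHAR123 throughout, a single signed number in parentheses after a gene or its levels is that log2 fold change, and levels are mean ± SD in CPM. Its median over all genes tested was 0.0009. The risers changed more, with 185 genes above a log2 fold change of 3 against 67 below -3. The genes that rose took 0.924% of the counts in hHAR123 and 3.12% in HAR123-KO, and those that fell took 2.86% and 0.971%. The 3 libraries of a group lay close together, and 58.7% of all genes tested had CPM values that did not overlap between the groups. Non-overlap by itself was therefore the rule rather than a mark of single genes.

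**Figure D1:**
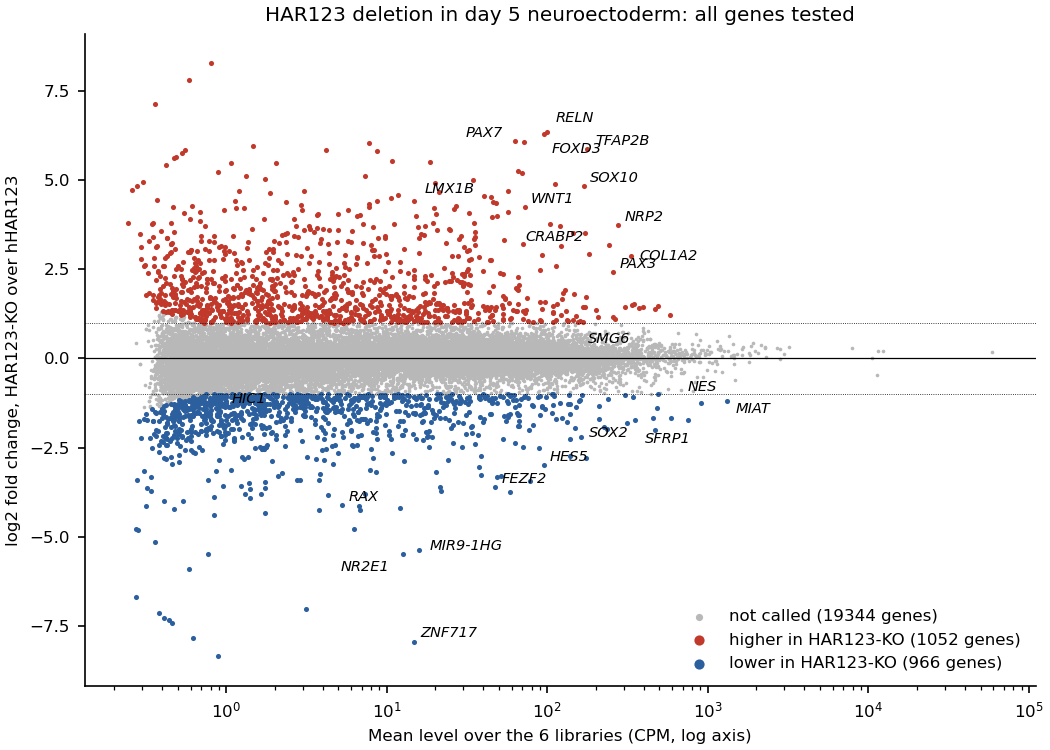
Each point is a gene, with its mean level over the 6 libraries in CPM on a log axis and its log2 fold change of HAR123-KO over hHAR123. The 1052 genes that rose are red, the 966 that fell are blue, and dotted lines mark log2 fold changes of 1 and -1. Among genes of at least 10 CPM, RELN, FOXD3 and PAX7 lie highest and ZNF717, NR2E1 and MIR9-1HG lowest.

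SMG6 contains the deleted element, and the study describes HIC1 as a neighboring gene. HIC1 (GRCh38, ENSG00000177374, chromosome 17, 2054154 to 2063241, forward strand), which encodes a zinc finger repressor, is the neighbor of SMG6 and overlaps its end. It had 41, 28 and 28 counts in the hHAR123 libraries and 14, 11 and 13 in the HAR123-KO libraries. The groups did not overlap, at 1.95, 1.16 and 1.20 CPM in the hHAR123 libraries and 0.603, 0.458 and 0.531 CPM in the HAR123-KO libraries, and HIC1 fell (log2 fold change -1.36, SE 0.30, adjusted p = 0.000145). SMG6 (ENSG00000070366, chromosome 17, 2059839 to 2303785, reverse strand), the gene that hosts HAR123, was at 149.7, 153 and 145 CPM in the hHAR123 libraries and 184, 182 and 170.1 CPM in the HAR123-KO libraries. Its difference passed the p threshold but not the fold threshold (log2 fold change 0.31, SE 0.04, adjusted p = 6.56e-11). Counts over the exons of whole genes do not show the deleted intronic segment, so no gene checks the deletion itself. Whether reads were counted by strand is not given in the sources used here, which makes the reads shared by HIC1 and SMG6 uncertain.

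Within 500 kb of SMG6 on either side, the table holds 71 genes, of which 36 were tested, 0 rose and 2 fell, beside 4.92% and 4.52% of all genes tested (edgeR and DESeq2, with 8 higher and 12 lower at an unadjusted p under 0.05). The 2 were HIC1 and CCDC92B, whose level went from 6.68 ± 0.725 to 3.17 ± 0.0524 CPM (log2 fold change -1.03, SE 0.13, adjusted p = 1.89e-09). The tested genes of this window spanned log2 fold changes from -1.36 to 0.70, with a median of -0.03. Values short of the call included PAFAH1B1, the lissencephaly gene LIS1, at -0.41 and CLUH at 0.64. All 19 NMD factors listed, SMG6 among them, were tested and 0 rose or fell by edgeR or DESeq2, although 13 had an unadjusted p under 0.05. Their log2 fold changes ran from -0.28 for MOV10 to 0.43 for RUVBL2, with UPF1, the central helicase, at 0.25 and UPF2 at -0.19.

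Transcription factors of the forebrain and eye field were lower without HAR123. Of the 17 listed, 14 were tested, 10 fell, 0 rose and 4 were not called (9 fell and 0 rose by DESeq2, and 13 were lower and 0 higher at an unadjusted p under 0.05), with a median log2 fold change of -1.78. NR2E1 (ENSG00000112333, chromosome 6, 108166022 to 108188805, forward strand), the tailless receptor of forebrain progenitors, was at 25.3, 25.6 and 23.8 CPM in the hHAR123 libraries and 0.646, 0.499 and 0.450 CPM in the HAR123-KO libraries. It was close to absent in all 3 HAR123-KO libraries (log2 fold change -5.49, SE 0.14, adjusted p = 2.02e-36). RAX, required for the eye field, was at 9.09, 10.4 and 10.4 CPM in the hHAR123 libraries and 0.775, 0.208 and 0.695 CPM in the HAR123-KO libraries, and SIX3, its partner in forebrain and eye specification, at 5.42, 4.59 and 4.87 CPM in the hHAR123 libraries and 1.16, 1.04 and 0.695 CPM in the HAR123-KO libraries. Neither overlapped between the groups (RAX, log2 fold change -4.10, SE 0.19, adjusted p = 5.28e-25). The zinc finger genes FEZF1 and FEZF2, which set the fate of the rostral forebrain, fell from 89.0 ± 1.38 to 8.63 ± 0.743 CPM (log2 fold change -3.31) and from 87.8 ± 1.63 to 7.005 ± 0.368 CPM (-3.60).

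Fewer cells of a type and less RNA per cell cannot be told apart in these bulk samples. The falls were unequal among the forebrain genes. EMX2, of the dorsal telencephalon, fell by less (log2 fold change -1.60), and OTX2, a broad marker of forebrain and midbrain, stood just short of the call at 509.9 ± 8.80 CPM in hHAR123 and 257 ± 3.35 CPM in HAR123-KO (log2 fold change -0.94, SE 0.03, adjusted p = 3.31e-32). OTX1 was at -0.48 on the log2 scale. SIX6, NKX2-1 and TBR1, which mark later or more ventral forebrain cells, were below the filter on low counts. DLX2 fell at a low level, from 0.944 ± 0.0845 to 0.375 ± 0.0740 CPM, and its call was lost with DESeq2 (log2 fold change -1.28, adjusted p = 0.0399) and without hHAR123 replicate 3 or HAR123-KO replicate 1. Genes with an LHX symbol, a group of LIM homeobox factors, fell. LHX2 fell from 1.76 ± 0.479 to 0.431 ± 0.211 CPM and LHX5, of the early forebrain, from 105.5 ± 3.99 to 19.7 ± 0.902, and all 4 tested genes of this symbol fell, with log2 fold changes of -2.37 to -1.97.

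General genes of the neural plate and its progenitors also leaned downward, by less. Of the 15 listed, all were tested, 6 fell, 1 rose and 8 were not called (median -0.89). The summed level of the list lay between 5377 and 5436 CPM in the hHAR123 libraries and between 2712 and 2763 CPM in the HAR123-KO libraries. SOX2, the progenitor factor that hESCs share with neural cells, was at 549, 549 and 528 CPM in the hHAR123 libraries and 159, 157 and 158 CPM in the HAR123-KO libraries (log2 fold change -1.73, SE 0.03, adjusted p = 4.78e-43). SOX1, specific to neuroectoderm, fell from 81.3 ± 1.59 to 25.8 ± 0.230 CPM (log2 fold change -1.60), and SOX21, a SoxB factor that accompanies SOX2, fell from 230.3 ± 11.5 to 46.8 ± 2.34 CPM (-2.25). NES, the intermediate filament of progenitors, fell to 517 CPM (-1.26).

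HES5 and LHX5 fell too and are given with the Notch genes and the forebrain genes. PAX6 went from 448 to 228 CPM (log2 fold change -0.92), SOX11 from 1027 to 631 CPM (-0.65) and the neural cadherin CDH2 from 558 to 373 CPM (-0.53), none of them past the fold threshold. FABP7, the lipid-binding protein of radial glia, was the member that rose, from 10.8 ± 1.41 to 29.7 ± 0.629 CPM (log2 fold change 1.51, SE 0.07, adjusted p = 7.04e-24). Among SOX genes as a family, 3 of 15 tested rose and 4 fell. The risers were SOX8, SOX9 and SOX10, the SoxE group that acts in neural crest, and the fallers included the SoxB genes SOX1, SOX2 and SOX21.

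Genes of the neural crest rose broadly without HAR123. Of the 22 listed, 21 were tested, 15 rose, 1 fell and 5 were not called (median 2.93). The summed level of the list was 719.5 to 727 CPM in hHAR123 and 3038 to 3051 CPM in HAR123-KO. TFAP2B (ENSG00000008196, chromosome 6, 50818723 to 50847619, forward strand), an AP-2 factor of premigratory crest, was at 6.56, 5.83 and 6.15 CPM in the hHAR123 libraries and 347, 343 and 353 CPM in the HAR123-KO libraries. The HAR123-KO libraries lay far above the hHAR123 libraries (log2 fold change 5.87, SE 0.05, adjusted p = 1.68e-56). SOX10, which maintains crest progenitors, was at 11.7, 11.7 and 12.3 CPM in the hHAR123 libraries and 329, 323 and 329 CPM in the HAR123-KO libraries (log2 fold change 4.83, SE 0.05, adjusted p = 4.98e-55). The crest specifier FOXD3 rose from 2.496 ± 0.202 to 188 ± 0.340 CPM. ETS1, a partner of these factors in cranial crest, rose from 7.55 ± 0.444 to 216 ± 4.31 CPM (log2 fold change 4.89), and SNAI2, a repressor that drives delamination, from 2.15 ± 0.304 to 66.5 ± 0.866 CPM (4.99).

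Receptors and adhesion molecules of crest cells rose with them. ERBB3, the neuregulin receptor, went from 14.5 ± 1.19 to 192 ± 3.75 CPM (log2 fold change 3.77), NGFR, the p75 receptor used to sort crest cells, from 43.3 ± 1.72 to 319 ± 6.36 CPM (2.93), EDNRB, the endothelin receptor, from 1.77 ± 0.160 to 17.7 ± 1.36 CPM (3.36) and CDH6, a cadherin of premigratory crest, from 24.2 ± 0.480 to 264 ± 3.19 CPM (3.50). RXRG, a nuclear receptor, had 9 counts over the 3 hHAR123 libraries and 175 over the HAR123-KO libraries, a ratio of 18.6 per total count (exact 95% interval 9.58 to 41.4, for counting error only). SOX9, a SoxE gene also used in other neural cells, rose by less (from 95.1 ± 2.08 to 194 ± 3.58 CPM, 1.08). MYC, a border and crest gene with roles in growth, was the exception and fell from 10.7 ± 0.822 to 4.28 ± 0.138 CPM (-1.28). SNAI1, the relative of SNAI2, was at 5.64 ± 0.437 CPM in hHAR123 and 4.68 ± 0.772 CPM in HAR123-KO and was not called (log2 fold change -0.22, SE 0.13, adjusted p = 0.141), and TWIST1, of mesenchymal crest, was below the filter.

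**Figure D2:**
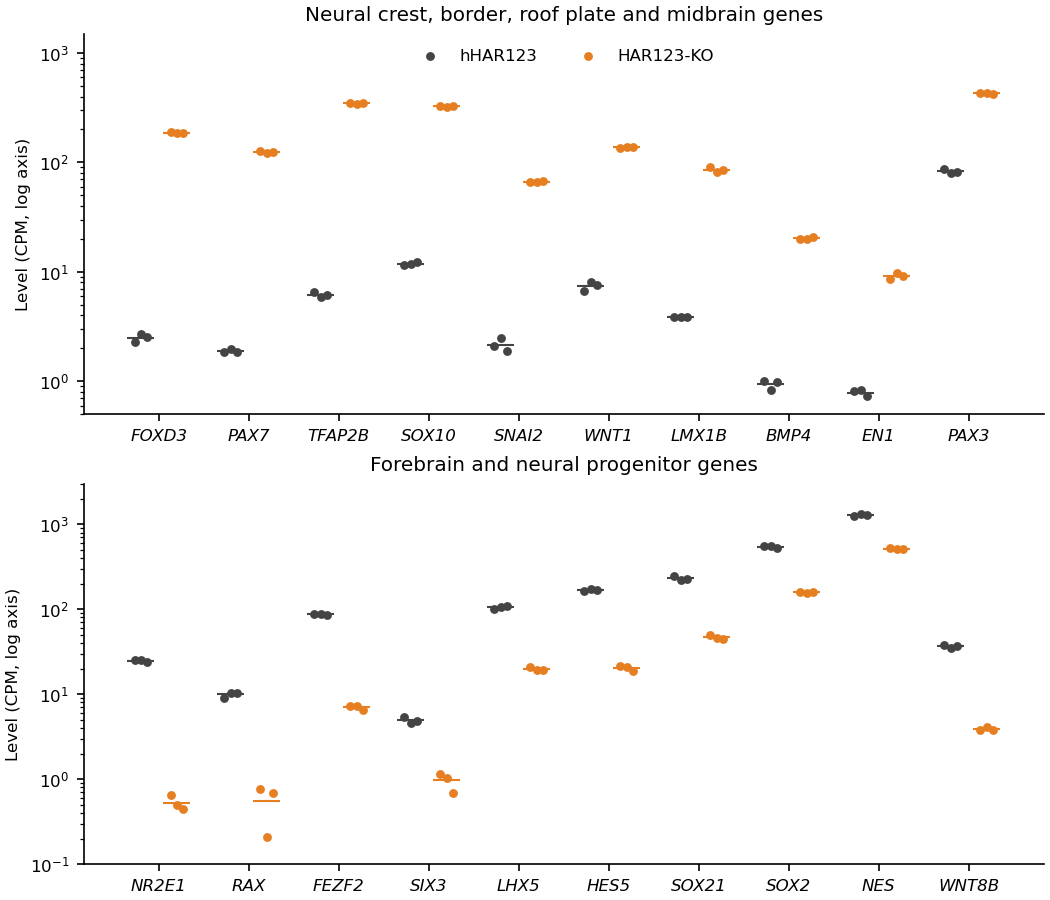
Points are single libraries, 3 of hHAR123 in grey and 3 of HAR123-KO in orange for each gene, short lines are group means, and the vertical axes give the level in CPM on a log scale. The 10 genes of the upper panel are higher in every HAR123-KO library than in any hHAR123 library, and the 10 genes of the lower panel are lower, with the points of a group nearly on top of each other except at low levels, such as RAX in HAR123-KO.

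Genes of the neural plate border, from which the crest arises, rose in the same libraries. Of 18 listed, 17 were tested, 11 rose, 3 fell and 3 were not called (median 2.13), and members of this list also stand in the neural crest and roof plate lists. PAX7 (ENSG00000009709, chromosome 1, 18630846 to 18748866, forward strand), a paired-box factor of the border and dorsal neural tube, was at 1.86, 1.98 and 1.84 CPM in the hHAR123 libraries and 127, 121 and 125 CPM in the HAR123-KO libraries (log2 fold change 6.09, SE 0.07, adjusted p = 1.5e-50). PAX3, its close relative, was already high in hHAR123 and rose from 83.4 ± 3.24 to 429.7 ± 7.20 CPM (2.42). Of the 4 AP-2 genes tested, 3 rose, namely TFAP2A (3.55), TFAP2B and TFAP2C (4.38), and the summed level of all 4 went from 17.98 to 501.9 CPM. The muscle segment homeobox genes MSX1 and MSX2, which respond to BMP at the border, rose from 3.82 ± 0.351 to 45.0 ± 1.37 CPM (3.61) and from 1.68 ± 0.188 to 17.7 ± 1.45 CPM (3.44). ZIC1 and ZIC4, zinc finger factors of the dorsal neural tube, rose, whereas their relative ZIC2 went from 229 to 366 CPM (0.73) short of the call. Going the other way, DLX5, a border and placode gene, fell from 1.15 ± 0.166 to 0.196 ± 0.0281 CPM (log2 fold change -2.48, SE 0.38, adjusted p = 2.57e-07). DLX6 beside it fell as well (log2 fold change -1.60), a call that was lost with DESeq2 (adjusted p = 0.0133).

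The lists were chosen with earlier results of these data known, and a ranking of them may reflect that choice. Among the lists examined, the roof plate list gave the highest share of risers, beside 4.92% over all genes tested. Of 16 genes, 14 were tested, 12 rose, 1 fell and 1 was not called (median 3.04), with a summed level of 111 to 112 CPM in hHAR123 and 513 to 526 CPM in HAR123-KO. LMX1B (ENSG00000136944, chromosome 9, 126613928 to 126701032, forward strand), a LIM homeobox factor of the roof plate and the midbrain, was at 3.85, 3.84 and 3.84 CPM in the hHAR123 libraries and 90.5, 82.2 and 84.4 CPM in the HAR123-KO libraries (log2 fold change 4.53, SE 0.07, adjusted p = 2.02e-45). Its paralog LMX1A, which defines the roof plate, rose by less (from 20.3 ± 0.575 to 42.9 ± 0.194 CPM, 1.14). WNT1, secreted from the dorsal midline, was at 6.66, 8.06 and 7.64 CPM in the hHAR123 libraries and 137, 137 and 137 CPM in the HAR123-KO libraries (log2 fold change 4.25, SE 0.06, adjusted p = 1.66e-48), and WNT3A rose from 0.428 ± 0.226 to 6.98 ± 0.601 CPM (4.03). GDF7, a BMP-type ligand made by the roof plate, rose from 7.27 ± 0.508 to 57.7 ± 2.11 CPM (3.03), and OLIG3, of dorsal progenitors, from 0.404 ± 0.288 to 3.30 ± 0.881 CPM (3.05). Among the R-spondins, which amplify Wnt signals, RSPO3 rose (3.63) and RSPO2 fell (from 37.9 ± 2.52 to 11.0 ± 0.578 CPM, -1.73), and RSPO1 was at -0.89 without a call.

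Along the anterior to posterior axis, several midbrain genes were higher and HOX genes were below the filter. Of 22 genes of the midbrain, isthmus and hindbrain, 14 were tested, 8 rose, 4 fell and 2 were not called (median 1.52). EN1, of the midbrain and isthmus, was at 0.809, 0.827 and 0.726 CPM in the hHAR123 libraries and 8.66, 9.74 and 9.15 CPM in the HAR123-KO libraries (log2 fold change 3.59, SE 0.16, adjusted p = 2.44e-25). PAX2, expressed across the same boundary, rose from 6.36 ± 0.635 to 64.7 ± 0.533 CPM (3.401), and MEIS2, a TALE homeobox factor, from 9.27 ± 0.871 to 40.7 ± 1.96 CPM (2.18). The 4 Iroquois genes tested, IRX1, IRX2, IRX3 and IRX5, which act posterior to the forebrain, each rose, within a narrow range of 1.48 to 1.69 on the log2 scale. FGF8, the organizer signal of the isthmus, went the other way, from 2.31 ± 0.101 to 0.571 ± 0.183 CPM (log2 fold change -1.95, SE 0.26, adjusted p = 5.76e-09), and so did EGR2, of hindbrain segments (-1.94), and PAX8 (-1.72). FGF17, a relative of FGF8, rose (2.20), a call that was lost with DESeq2 (adjusted p = 0.0135). No HOX cluster gene passed the filter on low counts in these 6 libraries, and EN2, GBX2 and PAX5 did not either.

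Many BMP ligands and extracellular antagonists rose. These cells were induced in the presence of Noggin protein, and BMP ligands act on receptors that phosphorylate SMAD1, SMAD5 and SMAD9, with the ID genes as common targets. Of 18 ligands and antagonists listed, 17 were tested, 10 rose, 1 fell and 6 were not called (median 1.32). Among ligands, BMP4 rose from 0.936 ± 0.0951 to 20.4 ± 0.498 CPM (4.49), BMP5 from 2.73 ± 0.406 to 36.4 ± 1.41 CPM (3.79), GDF10 from 0.812 ± 0.302 to 12.8 ± 0.387 CPM (4.02), BMP2 from 27.5 ± 0.351 to 103 ± 1.07 CPM (1.95) and BMP7 from 13.4 ± 0.832 to 28.4 ± 0.778 CPM (1.14). BMP6 fell at a low level (from 0.830 ± 0.0943 to 0.182 ± 0.0887 CPM, -2.11). Among antagonists, the NOG gene itself rose from 3.27 ± 0.685 to 20.8 ± 1.10 CPM (log2 fold change 2.71, SE 0.10, adjusted p = 3.36e-28), and BMPER and GREM1 rose, whereas CHRD, FST and CHRDL1 had log2 fold changes of -0.64, -0.56 and -0.57 without a call.

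The response side of the pathway moved less than the ligands. Of 15 receptors, SMADs and targets, all tested, 5 rose, 1 fell and 9 were not called (median 0.07). ID1 was at 9.42, 9.09 and 9.99 CPM in the hHAR123 libraries and 27.3, 27.05 and 27.5 CPM in the HAR123-KO libraries (log2 fold change 1.57, SE 0.07, adjusted p = 9.81e-25). ID3 rose from 35.2 ± 0.753 to 97.1 ± 2.42 CPM (1.52) and ID2 from 23.2 ± 2.14 to 46.7 ± 1.89 CPM (1.06), but ID4, which neural progenitors express without BMP, fell from 96.9 ± 0.997 to 32.2 ± 0.810 CPM (log2 fold change -1.54, SE 0.04, adjusted p = 1.72e-33). SMAD9 rose (1.09) and fell below the fold threshold without hHAR123 replicate 1, at 0.96. The inhibitory SMAD6 was at 0.43 and SMAD7 at -0.12, and the receptor BMPR1A at -0.27.

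Wnt genes divided by ligand. Of 30 ligands, receptors and R-spondins, 28 were tested, 9 rose, 5 fell and 14 were not called, and the median was -0.13. Besides WNT1 and WNT3A, WNT4 rose from 2.40 ± 0.349 to 38.3 ± 1.78 CPM (4.05) and WNT10B from 2.77 ± 0.491 to 29.7 ± 2.05 CPM (3.48). WNT8B, a ligand of the forebrain, was at 38.3, 34.5 and 36.8 CPM in the hHAR123 libraries and 3.79, 4.08 and 3.80 CPM in the HAR123-KO libraries (log2 fold change -3.18, SE 0.08, adjusted p = 2.15e-35), and WNT5B fell from 129.5 ± 6.37 to 34.5 ± 1.18 CPM (-1.86). Frizzled receptors split as well. FZD10, of the dorsal neural tube, rose from 4.67 ± 0.216 to 42.0 ± 0.744 CPM (3.22), and FZD2 fell from 220.3 ± 8.12 to 83.4 ± 3.22 CPM (-1.35).

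Several feedback targets of Wnt and β-catenin signaling rose, and secreted Wnt antagonists moved in both directions. Of 22 targets and antagonists, 17 were tested, 8 rose, 2 fell and 7 were not called (median 0.47). NKD1, a feedback inhibitor, was at 27.8, 29.5 and 28.9 CPM in the hHAR123 libraries and 322, 319 and 310.4 CPM in the HAR123-KO libraries (log2 fold change 3.52, SE 0.04, adjusted p = 1.41e-51). AXIN2, a widely used readout of the pathway, rose from 55.5 ± 0.331 to 203 ± 3.98 CPM (1.92), SP5 from 6.34 ± 1.35 to 44.9 ± 2.46 CPM (2.87), APCDD1 from 6.35 ± 0.272 to 53.9 ± 1.82 CPM (3.13) and LEF1 from 35.7 ± 1.01 to 87.3 ± 2.65 CPM (1.34). CCND1, also a target, was at 0.47 without a call. Among secreted antagonists, DKK1 and NOTUM rose (1.81 and 1.63), and FRZB, of the SFRP family, was at -0.26 without a call. SFRP1 was at 716, 674 and 699 CPM in the hHAR123 libraries and 212, 213 and 211 CPM in the HAR123-KO libraries (log2 fold change -1.66, SE 0.03, adjusted p = 4.15e-43), and SFRP2 fell from 223 ± 3.403 to 95.7 ± 2.29 CPM (-1.17).

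Notch and FGF genes leaned the other way. Of 17 Notch ligands, receptors, modifiers and targets, all tested, 6 fell, 0 rose and 11 were not called (median -0.40), with the same counts by DESeq2 and 2 higher at an unadjusted p under 0.05. HES5, the Notch target of neural progenitors, was at 164, 175 and 170.4 CPM in the hHAR123 libraries and 21.3, 21.2 and 19.0 CPM in the HAR123-KO libraries (log2 fold change -3.00, SE 0.05, adjusted p = 1.62e-45). DLL1, a ligand, fell from 237 ± 5.24 to 58.8 ± 3.15 CPM (-1.96), LFNG, which glycosylates Notch, from 379 ± 13.2 to 93.1 ± 3.87 CPM (-1.97) and NRARP, a feedback target, from 81.0 ± 3.21 to 32.9 ± 0.746 CPM (-1.25). HES1, which many pathways regulate, was at -0.06, and the receptors NOTCH1 and NOTCH2 at -0.01 and 0.75, none of them called. MFNG was close to the limit, with -0.92 without HAR123-KO replicate 3.

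Of 24 FGF ligands, receptors and targets, 21 were tested, 8 fell, 1 rose and 12 were not called (median -0.65). The ETS factors ETV5 and ETV4, transcriptional readouts of FGF signaling, fell from 28.0 ± 0.989 to 5.57 ± 0.262 CPM (log2 fold change -2.28, SE 0.08, adjusted p = 1.53e-29) and from 6.25 ± 0.398 to 1.58 ± 0.466 CPM (-1.92). The feedback inhibitors SPRY1, SPRY2 and SPRED2 fell by 1.47, 1.495 and 1.29 on the log2 scale, and SPRY4 and DUSP6 were at -0.93 and -0.90, short of the call. The receptors FGFR1 and FGFR2 were at -0.59 and 0.77. FGF9 fell narrowly (-1.02), and it dropped under the fold threshold without hHAR123 replicate 1, HAR123-KO replicate 1 or HAR123-KO replicate 2, at -0.96, -0.96 and -0.92.

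Of 15 Hedgehog genes, 11 were tested, 2 rose and 1 fell. PTCH1, the receptor and a target of the pathway, fell from 209.7 ± 3.21 to 68.6 ± 1.97 CPM (log2 fold change -1.56, SE 0.04, adjusted p = 8.81e-38), while CDON, a co-receptor, and HHIP, an antagonist, rose (log2 fold changes 1.17 and 3.63). HHIP was at a low level, with means of 0.217 CPM in hHAR123 and 2.66 CPM in HAR123-KO, and it also rose in hESCs (log2 fold change 1.13). SHH and GLI1 were below the filter. In the retinoic acid pathway, 7 of 16 genes tested rose and 1 fell, of 17 listed. CRABP2, which carries retinoic acid to its receptors, was at 50.4, 50.6 and 49.7 CPM in the hHAR123 libraries and 439, 436 and 427 CPM in the HAR123-KO libraries (log2 fold change 3.16, SE 0.04, adjusted p = 7.59e-52). STRA6, which takes up retinol, rose from 5.07 ± 0.578 to 52.7 ± 0.753 CPM (3.43) and RARG, a receptor, from 15.9 ± 0.0229 to 45.0 ± 0.656 CPM (1.56). Of the enzymes that make retinoic acid, ALDH1A3 rose (1.73) and ALDH1A2 fell (-1.43), both at a few CPM, and CYP26A1, which degrades it, was at -0.49 without a call.

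**Figure D3:**
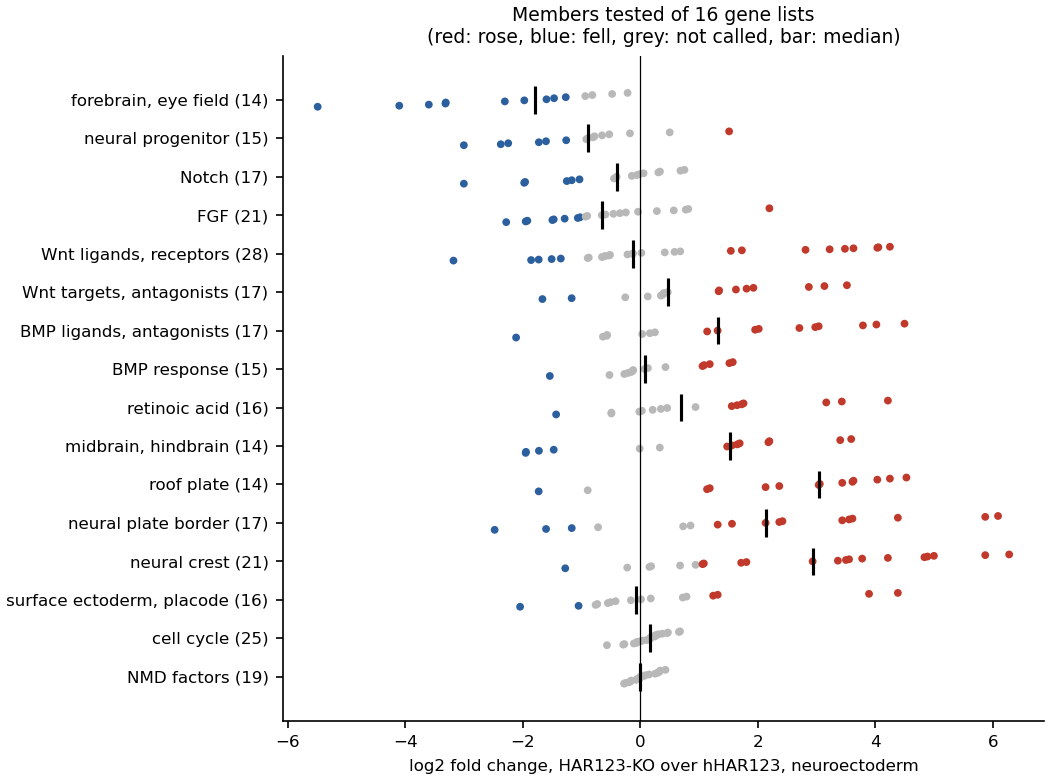
Each row is a gene list, with the number of members tested in parentheses, and each point is the log2 fold change of a member, red where it rose, blue where it fell and grey where it was not called. Black bars are list medians, from -1.78 for forebrain and eye field genes to 3.04 for roof plate genes, and the cell cycle and NMD lists hold grey points only.

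Promoter sequences are shown for 4 of these genes, HES5 of the Notch list, SP5 of the Wnt targets, LMX1B of the roof plate, and RELN, the gene with the largest rise in log2 fold change among called genes with a mean of at least 1 CPM. They put beside the values the bases next to the start of genes that moved in opposite directions. Each is the 250 bases before the RefSeq gene start in GRCh38.p14, written 5′ to 3′ on the strand of the gene. Capitals mark matches on either strand to the letters TGGGAA, bound by the Notch effector RBPJ, in HES5, to CTTTGAT, bound by TCF and LEF factors, in SP5, and to GCCNNNGGC, bound by AP-2 factors, in LMX1B and RELN. The windows are chr1:2530264-2530513, reverse strand, chr2:170715087-170715336, forward strand, chr9:126613678-126613927, forward strand and chr7:103989659-103989908, reverse strand.
HES5: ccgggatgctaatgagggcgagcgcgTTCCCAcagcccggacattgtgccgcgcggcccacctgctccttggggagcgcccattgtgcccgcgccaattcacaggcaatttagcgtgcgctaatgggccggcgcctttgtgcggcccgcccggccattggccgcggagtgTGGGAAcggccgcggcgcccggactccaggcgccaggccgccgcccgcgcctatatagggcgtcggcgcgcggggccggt
SP5: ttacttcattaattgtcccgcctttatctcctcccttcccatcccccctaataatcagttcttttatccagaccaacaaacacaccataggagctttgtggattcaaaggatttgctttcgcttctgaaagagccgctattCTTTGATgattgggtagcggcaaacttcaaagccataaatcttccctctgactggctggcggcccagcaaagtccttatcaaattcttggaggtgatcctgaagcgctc
LMX1B: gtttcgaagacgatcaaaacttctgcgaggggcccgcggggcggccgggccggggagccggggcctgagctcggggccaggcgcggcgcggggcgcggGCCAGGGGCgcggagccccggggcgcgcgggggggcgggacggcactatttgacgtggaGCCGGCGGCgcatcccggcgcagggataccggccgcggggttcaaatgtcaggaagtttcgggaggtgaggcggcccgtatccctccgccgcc
RELN: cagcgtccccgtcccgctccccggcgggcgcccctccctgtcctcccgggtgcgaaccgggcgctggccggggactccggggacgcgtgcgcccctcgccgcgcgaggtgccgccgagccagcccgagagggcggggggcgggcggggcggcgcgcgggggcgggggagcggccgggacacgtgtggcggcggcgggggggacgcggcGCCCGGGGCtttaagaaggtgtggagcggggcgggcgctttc

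HES5 fell and had 2 marked matches. SP5 rose and had 1, LMX1B rose and had 2, and RELN rose and had 1. Left unmarked, HES5 also had 1 match to the AP-2 letters and SP5 had 1 to the RBPJ letters. Such letters are common, so the matches describe these windows and show no binding. RefSeq windows were matched by symbol to 12853 of the genes tested, 675 of them risers and 509 fallers. The RBPJ letters stood in 21.1% of the 27305 promoters of this length, in 19.6% of those of tested genes, in 18.1% of those of risers and in 22.0% of those of fallers. In the same order, the TCF and LEF letters stood in 2.28%, 1.36%, 1.48% and 1.18%, and the AP-2 letters in 19.7%, 27.2%, 24.9% and 28.9%. Letters of OTX factors (GGATTA) stood in 5.67%, 3.98%, 2.81% and 5.11%. Those of SNAI factors (CAGGTG) stood in 17.5%, 16%, 14.4% and 20%. FOXD3, PAX7 and TFAP2B had no match to the RBPJ, the TCF and LEF or the AP-2 letters in this window. PAX7 had 1 match to the OTX letters, and HES5 had 1 to the SNAI letters.

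Beyond the lists, the largest rises in log2 fold change among called genes with a mean of at least 1 CPM fell on genes of several kinds. RELN, the secreted glycoprotein that positions migrating neurons, was at 3.23, 2.48 and 1.96 CPM in the hHAR123 libraries and 193, 199 and 200.3 CPM in the HAR123-KO libraries, and its mean per kilobase of exon went from 0.0723 to 5.58 CPM per kb. On that scale FOXD3 went from 0.974 to 73.2 CPM per kb, so that after correction for length FOXD3 was the more abundant of both in each genotype. KANK4, of a family of adhesion scaffold proteins, was at 2.47, 2.23 and 1.92 CPM in the hHAR123 libraries and 142, 137 and 142 CPM in the HAR123-KO libraries (log2 fold change 6.05, SE 0.07, adjusted p = 3.79e-51). PRSS56, a serine protease known for its role in eye growth, was at 0.285, 0.207 and 0.213 CPM in the hHAR123 libraries and 14.9, 15.9 and 14.8 CPM in the HAR123-KO libraries (log2 fold change 6.04, SE 0.18, adjusted p = 6.42e-33). FOXD3-AS1, transcribed from the opposite strand beside FOXD3, rose from 0.815 ± 0.00963 to 36.2 ± 1.04 CPM (5.51), and because the genes overlap and the strand setting is not given, its reads cannot be told apart from those of FOXD3 with certainty.

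HDC, which makes histamine, rose from 0.301 ± 0.212 to 16.99 ± 1.52 CPM (5.82), PDYN, which encodes the dynorphin opioid peptides, from 0.464 ± 0.102 to 21.1 ± 0.846 CPM (5.54), CPED1 from 0.145 ± 0.0606 to 8.24 ± 0.710 CPM (5.82) and S100B, a calcium-binding protein of glia, from 0.0870 ± 0.112 to 3.97 ± 0.0692 CPM (5.47). UGT2B7, a glucuronosyltransferase, had 3 counts over the hHAR123 libraries and 208 over the HAR123-KO libraries, a ratio of 66.4 (95% interval 22.4 to 324). It belongs to a family of similar genes among which reads could be divided, which makes its value uncertain. In each of these genes every HAR123-KO library lay above every hHAR123 library.

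The largest falls by the same rule were those of ZNF717, a zinc finger gene with near-identical copies that make its value uncertain, and of a gene with no symbol, ENSG00000289456. ZNF717 was at 30.3, 27.7 and 30.7 CPM in the hHAR123 libraries and 0.0431, 0.208 and 0.0817 CPM in the HAR123-KO libraries, nearly absent from all HAR123-KO libraries (log2 fold change -7.93, SE 0.18, adjusted p = 1.67e-38). ENSG00000289456 had 122, 157 and 152 counts in the hHAR123 libraries and 0, 3 and 0 in the HAR123-KO libraries, a ratio of hHAR123 to HAR123-KO of 150.1 (95% interval 51.0 to 731). MIR9-1HG, the host transcript of a copy of the brain microRNA miR-9, was at 29.6, 32.0 and 31.7 CPM in the hHAR123 libraries and 0.474, 1.08 and 0.613 CPM in the HAR123-KO libraries (log2 fold change -5.36, SE 0.13, adjusted p = 4.56e-37), and MIR7-3HG, the host of a copy of miR-7, fell from 2.66 ± 0.171 to 0.166 ± 0.0818 CPM (-3.90). Host transcripts were counted here and not the mature microRNAs.

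BARHL2, a homeobox factor of the diencephalon and retina, fell from 12.9 ± 0.790 to 0.655 ± 0.157 CPM (-4.24), LRRC3B from 23.1 ± 2.78 to 1.21 ± 0.0325 CPM (-4.19), FAM107A, a gene of outer radial glia, from 7.18 ± 0.848 to 0.363 ± 0.128 CPM (-4.24) and ST8SIA6, a sialyltransferase, from 12.7 ± 1.45 to 0.697 ± 0.0515 CPM (-4.12). HSPA6, an inducible heat shock protein, was at 11.6, 12.3 and 12.5 CPM in the hHAR123 libraries and 0.603, 0.374 and 0.286 CPM in the HAR123-KO libraries (log2 fold change -4.79, SE 0.18, adjusted p = 5.23e-29). The related HSPA1A and HSPA1B were at -0.72 and -0.81 without a call, and these genes are similar enough for reads to be divided among them. H1-1, a linker histone gene, fell from 3.34 ± 0.323 to 0.155 ± 0.0921 CPM (-4.34).

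COL1A2 and NRP2 gained most in absolute level among called genes. COL1A2, a chain of type I collagen, was at 81.0, 79.8 and 84.8 CPM in the hHAR123 libraries and 597, 576 and 569.7 CPM in the HAR123-KO libraries (log2 fold change 2.88, SE 0.03, adjusted p = 5.22e-51). NRP2, a semaphorin receptor that guides crest cells, was at 38.3, 39.5 and 41.2 CPM in the hHAR123 libraries and 510.5, 512 and 515 CPM in the HAR123-KO libraries (log2 fold change 3.74, SE 0.04, adjusted p = 3.77e-54). VCAN, the proteoglycan versican, rose from 267 ± 5.35 to 710.0 ± 13.6 CPM (1.46), HSPG2, perlecan, from 266 ± 10.3 to 673 ± 15.9 CPM (1.39) and PEG10, an imprinted gene of retroviral origin, from 359.7 ± 3.64 to 802 ± 8.69 CPM (1.21). CRABP2 and PAX3, given above, were also among the 8 largest gains.

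The largest losses in level were of abundant transcripts. MIAT, a long noncoding RNA of neural cells, was at 1830.3, 1839 and 1866 CPM in the hHAR123 libraries and 783, 783 and 780.2 CPM in the HAR123-KO libraries (log2 fold change -1.19, SE 0.03, adjusted p = 8.49e-40). NAV1, a microtubule-associated protein of growing neurites, fell from 1161 ± 4.31 to 335 ± 4.33 CPM (-1.74), CEMIP2, a hyaluronidase of the cell surface, from 902 ± 26.8 to 275 ± 2.35 CPM (-1.66), SULF1, which trims heparan sulfate and so tunes growth factor signals, from 752 ± 19.6 to 182 ± 3.28 CPM (-1.997) and SLC6A8, the creatine transporter, from 709 ± 21.4 to 259 ± 12.1 CPM (-1.40). NES, SFRP1 and SOX2, given above, were among the same 8.

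Genes of axon guidance moved in both directions. Of 40 guidance genes, 38 were tested, 9 rose, 3 fell and 26 were not called (median 0.40). All 3 SLIT ligands rose, SLIT1 from 5.93 ± 0.0864 to 90.9 ± 0.246 CPM (3.99), SLIT2 from 11.9 ± 1.60 to 48.0 ± 0.900 CPM (2.07) and SLIT3 from 7.24 ± 0.467 to 63.4 ± 0.777 CPM (3.18), whereas their receptors ROBO1 and ROBO2 were at 0.70 and 0.40 without a call. SEMA3C, which acts on crest cells, rose from 1.88 ± 0.189 to 28.7 ± 1.30 CPM (3.98). Of the netrin receptors, DCC rose from 33.3 ± 1.55 to 192 ± 2.37 CPM (2.57) and UNC5C from 2.34 ± 0.128 to 29.1 ± 0.232 CPM (3.69). The Eph receptors EPHB2, EPHA2 and EPHA4 fell, EPHA4 from 467 ± 1.61 to 214 ± 0.928 CPM (-1.08).

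Among classical cadherins, which sort cells by adhesion, 4 of 13 rose and 2 fell. CDH6 and CDH9 rose, CDH9 from 8.47 ± 0.556 to 42.9 ± 1.32 CPM (2.39), while CDH7 fell from 10.2 ± 0.917 to 1.85 ± 0.538 CPM (-2.41) and CDH8 from 53.9 ± 0.610 to 13.97 ± 0.953 CPM (-1.90). CDH2 and CDH1 were at -0.53 and -0.73 without a call. Of 30 matrix genes tested, 9 rose and 3 fell, and the chains of type I collagen differed, with COL1A2 called as a riser and COL1A1 at 47.0 ± 2.88 CPM in hHAR123 and 39.5 ± 1.19 CPM in HAR123-KO (log2 fold change -0.20, SE 0.05, adjusted p = 0.00101). TNC, tenascin of progenitor niches, fell from 53.8 ± 1.79 to 13.6 ± 1.39 CPM (-1.93). In the Reelin pathway RELN was the single gene called of 11 (9.09%, near the 9.45% of all genes tested). Its receptors VLDLR and LRP8 were at 0.23 and 0.24, and the adaptor DAB1 at -0.91.

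Early neuronal genes were split by type. Of 23 listed, 21 were tested, 5 rose, 2 fell and 14 were not called (median 0.21). POU4F1, a factor of sensory neurons and dorsal midbrain, was at 27.4, 25.3 and 23.4 CPM in the hHAR123 libraries and 218, 220.3 and 215 CPM in the HAR123-KO libraries (log2 fold change 3.15, SE 0.04, adjusted p = 6.72e-48). Of the proneural genes, NEUROG1, of sensory lineages, rose from 1.65 ± 0.187 to 11.4 ± 1.44 CPM (2.84), and NEUROG2, prominent in cortical progenitors, fell from 2.61 ± 0.241 to 1.16 ± 0.268 CPM (-1.12, and -0.99 without HAR123-KO replicate 3). The general neuronal genes TUBB3 and DCX were at -0.45 and 0.61 without a call. Of 13 glial genes listed, 8 were tested, 5 rose and 0 fell (4 and 0 by DESeq2). GFAP, AQP4, OLIG1 and OLIG2 were among those below the filter. The risers included S100B, given above, and NFIA, a factor of the switch to glia, from 1.43 ± 0.145 to 12.9 ± 1.22 CPM (3.22). NFIB, also a riser, lost its call with DESeq2 (adjusted p = 0.0351). SLC1A3, SLC1A2 and MBP were at 0.61, -0.47 and -0.62 without a call. Of 23 synapse and channel genes tested, 4 rose and 4 fell. CNTNAP2, a neurexin-type adhesion protein, fell from 494 ± 22.9 to 136 ± 4.45 CPM (log2 fold change -1.81, SE 0.03, adjusted p = 1.99e-42) and NRXN3, a presynaptic neurexin, from 95.7 ± 1.54 to 37.0 ± 0.894 CPM (-1.32), while SNAP25, of vesicle release, rose from 3.81 ± 0.288 to 8.22 ± 0.345 CPM (1.16).

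Genes of other cell types that such cultures could hold were checked beside these results. Of 19 surface ectoderm and placode genes, 16 were tested, 4 rose and 2 fell, and the epidermal genes TP63, KRT5 and KRT14 were below the filter. The summed level of that list was 389 to 399 CPM in hHAR123 and 399 to 411 CPM in HAR123-KO. DESeq2 called 3 risers in place of 4. The risers included TFAP2C and GATA3, the latter with 5 counts over the hHAR123 libraries and 80 over the HAR123-KO libraries, a ratio of 15.3 (95% interval 6.30 to 48.4). Of 16 mesoderm genes, 7 were tested and 4 rose, with PDGFRA, also found on crest-derived mesenchyme, from 3.17 ± 0.171 to 13.4 ± 0.0590 CPM (2.13). FOXC2 and MEOX1 among them lost their call with DESeq2 (adjusted p = 0.0914 and 0.0218), which left 2 mesoderm risers. TBXT, EOMES and MIXL1 were below the filter. Of 14 endoderm genes, 3 were tested and 0 rose or fell by edgeR or DESeq2, with 3 at an unadjusted p under 0.05. The summed level of the mesoderm list was 15.9 to 16.7 CPM in hHAR123 and 38.1 to 39.6 CPM in HAR123-KO, and that of the endoderm list 55.5 to 56.9 and 55.9 to 60.9 CPM. Of 11 endothelial and blood genes, 4 were tested, and TEK alone was called, from 2.15 ± 0.161 to 4.59 ± 0.551 CPM (1.15).

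Of 19 pluripotency genes, 14 were tested, 2 rose and 2 fell. The risers were L1TD1, an RNA-binding protein of hESCs (from 8.83 ± 1.03 to 57.9 ± 3.20 CPM, 2.77), and ZFP42, known as REX1 (from 5.38 ± 0.422 to 24.1 ± 1.23 CPM, 2.22). POU5F1 and NANOG were at -0.51 and -0.54 without a call. The fallers were SOX2, shared with neural cells, and UTF1 (-1.88), whose call was lost with DESeq2 (adjusted p = 0.0106). Of 11 muscle and mesenchyme genes tested, 3 fell and 0 rose, with 1 higher and 7 lower at an unadjusted p under 0.05. The summed level of that list was nonetheless higher in HAR123-KO, at 861 to 900 CPM against 630 to 656 CPM in hHAR123, and VIM was at 0.71 without a call. ACTA1, skeletal actin, fell from 5.59 ± 0.595 to 0.794 ± 0.214 CPM (-2.76) and TAGLN, of smooth muscle, from 25.3 ± 2.19 to 11.2 ± 0.641 CPM (-1.13). The part of any such cell in the results above was not tested.

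Housekeeping programs gave few or no calls, beside 9.45% of all genes tested, a share that yields few calls in lists of this size. None of the 25 cell cycle genes was called by edgeR or DESeq2, although 19 had an unadjusted p under 0.05, with log2 fold changes from -0.57 for CCND2 to 0.68 for AURKB. MKI67, a proliferation marker, was at 455 ± 3.04 CPM in hHAR123 and 569 ± 8.36 CPM in HAR123-KO (0.37), and TOP2A at -0.11. By the adjusted p alone, without the fold threshold, 9412 genes, 44.1% of all those tested, would pass. None of 17 glycolysis and hypoxia genes tested was called by either tool (14 at an unadjusted p under 0.05), with GAPDH at 0.33 and the glucose transporter SLC2A1 at -0.89. Of 20 stress genes, 1 rose and 0 fell. FAS, a death receptor and p53 target, was the riser (1.25), and GADD45B stood at -0.99, past the limit at -1.01 with DESeq2 size factors.

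Whether the deletion had the same effect before differentiation was asked in the hESCs of both genotypes, 3 libraries each. There 200 genes rose and 46 fell in HAR123-KO, which is 0.96% and 0.221% of the genes tested. Of the 1052 genes that rose in neuroectoderm, 36 (3.42%) also rose in hESCs, which is 18% of the 200, and of the 966 that fell, 22 (2.28%) fell in hESCs, which is 47.8% of the 46. Only 817 of these risers and 677 of these fallers had enough counts to be tested in hESCs, and the others could not be called there. The difference between the effects was tested as an interaction term in a fit of 12 libraries, which include the 6 used above. It passed for 888 genes with a higher effect in neuroectoderm and 932 with a lower effect, 3.84% and 4.03% of the genes tested, 7.87% together.

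FOXD3 shows the contrast between stages. In hESCs it was at 38.6, 37.4 and 41.4 CPM in hHAR123 and 37.5, 36.3 and 38.0 CPM in HAR123-KO, with overlapping groups (log2 fold change -0.09). It was thus expressed in hESCs of both genotypes, low in hHAR123 neuroectoderm and high in HAR123-KO neuroectoderm, and the interaction was 6.36 (SE 0.09, adjusted p = 1.29e-46). SOX2 was also even between genotypes in hESCs (206 and 204 CPM, interaction -1.69), and so was COL1A2 (90.4 and 95.4 CPM, interaction 2.82). Other genes were near 0 in hESCs of either genotype, such as WNT1, SP5 and HES5, and for these the interaction has little to compare with. BMP4 differed at both stages, with log2 fold changes of 1.15 in hESCs and 4.49 in neuroectoderm. ZNF717 was equally low at both, at -8.05 in hESCs.

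GDF7 went in opposite directions. It fell in HAR123-KO hESCs from 2.53 to 0.199 CPM (log2 fold change -3.66, adjusted p = 5.08e-13) and rose in neuroectoderm as given above. In all, 4 genes rose in neuroectoderm and fell in hESCs, and 7 did the reverse. The actin gene ACTA1 was among the latter, from 13.0 to 55.1 CPM in hESCs, and so was TAGLN, from 53.2 to 142 CPM. These examples were chosen after their values were seen.

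**Figure D4:**
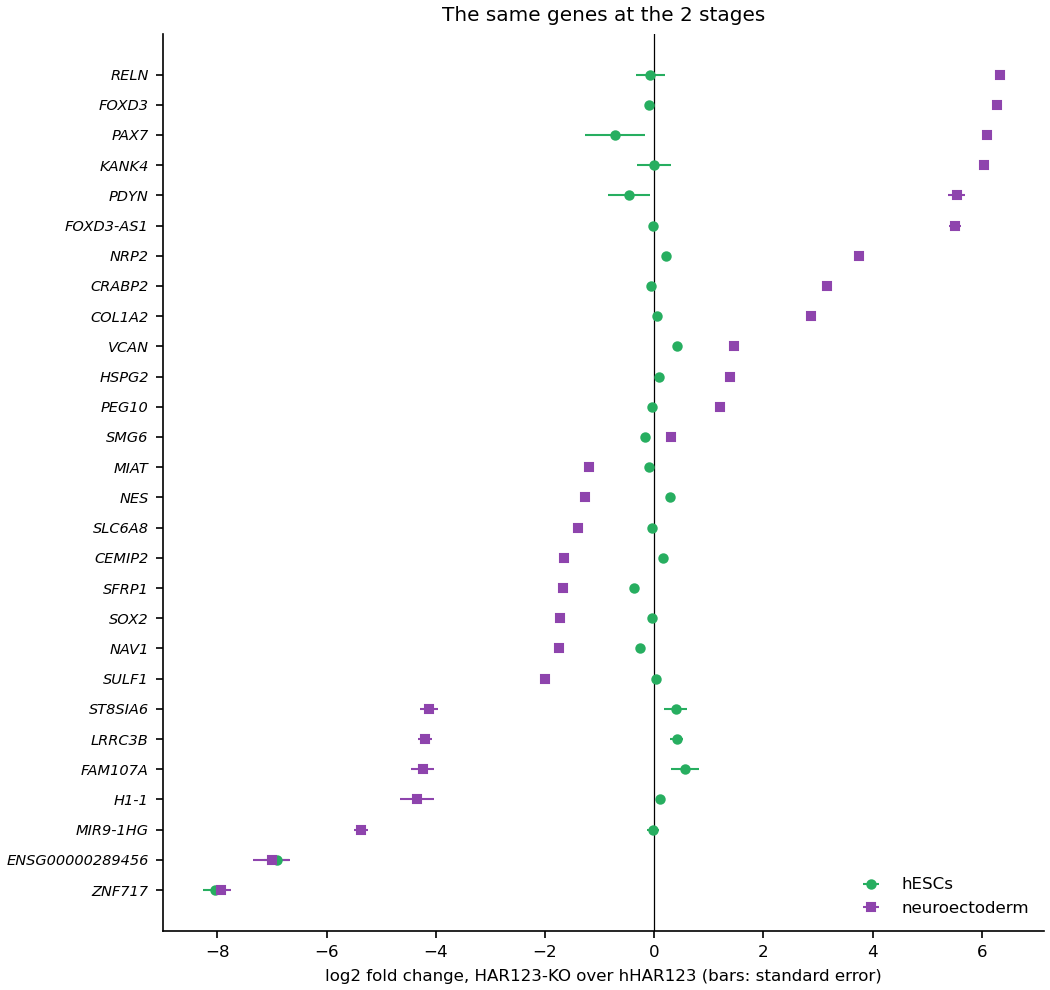
Rows are SMG6 and the genes with the largest changes in log2 fold change or in level that were tested at both stages. They are ordered by their value in neuroectoderm. Green circles give the log2 fold change of HAR123-KO over hHAR123 in hESCs, purple squares that in neuroectoderm, and bars the standard error. Genes named only as list members, such as GDF7, BMP4 and ACTA1, which were called in hESCs, are not drawn. Most circles of the genes drawn lie near 0, whereas ZNF717 and ENSG00000289456 are at about the same low value at both stages.

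The ortholog lines, in which the chimpanzee or mouse element stands in place of the human one, offer another set of edited cells at the same stage. Both carry a HAR123 element, so a gene that is off in HAR123-KO alone can be seen against them. Their 6 neuroectoderm libraries are given together. HAR123-KO differed from their mean for 848 genes that were higher and 797 that were lower, 3.88% and 3.65% of the genes tested, and 7.54% together. This comparison shares the HAR123-KO libraries with that against hHAR123, so the values are set side by side without a count of overlap.

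The forebrain and progenitor genes HES5, LHX5, FEZF2 and SOX2 were nearer to hHAR123 than to HAR123-KO in the ortholog lines. HES5 was at 160.4 to 175 CPM (median 168) there, next to 169.7 in hHAR123 and 20.5 in HAR123-KO. LHX5 was at 103 to 112 CPM (median 110.0) and FEZF2 at 72.9 to 81.3 CPM (median 76.4), the latter below every hHAR123 library. SOX2 was at 479 to 525 CPM (median 498). In each, every ortholog library lay above every HAR123-KO library. NR2E1 and RAX were lower in every ortholog library than in any hHAR123 library, at 14.6 to 19.9 CPM (median 17.8) and 4.26 to 6.66 CPM (median 5.00). Their means were 24.9 and 9.97 CPM in hHAR123 and 0.532 and 0.559 CPM in HAR123-KO. HAR123-KO differed from the ortholog lines by log2 fold changes of -5.02 and -3.18.

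These crest and roof plate genes had intermediate levels in the ortholog lines, above hHAR123 and below HAR123-KO. TFAP2B was at 24.9 to 36.3 CPM (median 31.1), SOX10 at 33.8 to 54.7 CPM (median 45.5), PAX7 at 9.48 to 12.3 CPM (median 10.8) and WNT1 at 13.5 to 21.2 CPM (median 16.7), next to means of 6.18, 11.9, 1.89 and 7.45 CPM in hHAR123. Every ortholog library lay above every hHAR123 library for these 4 genes. HAR123-KO was higher than the ortholog lines by log2 fold changes of 3.52, 2.90, 3.53 and 3.04 (adjusted p = 1.53e-58, 1.61e-55, 1.35e-51 and 6.53e-51). EN1 was at 0.787 to 1.92 CPM (median 1.11), a range that overlaps the hHAR123 values. ID1 and DKK1 lay between both genotypes without a call against the ortholog lines (log2 fold changes 0.79 and 0.62).

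Some genes set hHAR123 apart rather than HAR123-KO. HIC1 was at 0.359 to 0.761 CPM (median 0.459) in the ortholog lines, as low as in HAR123-KO (log2 fold change 0.03, adjusted p = 0.951). H1-1 was at 0.124 to 0.359 CPM (median 0.240) and ENSG00000289456 at 0 to 0.280 CPM (median 0.0435), near 0 like HAR123-KO. HSPA6 was at 2.90 to 4.77 CPM (median 3.89), between the genotypes. ZNF717 did the reverse, at 25.5 to 28.8 CPM (median 26.96), so that among the neuroectoderm libraries it was near 0 in the 3 of HAR123-KO and in no other.

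Whether the deletion moved genes that differentiation itself moves was asked with the 12 libraries of the ortholog lines at both stages, none of which enters the comparison of HAR123-KO with hHAR123. In those lines 5273 genes were induced and 4970 repressed between hESCs and neuroectoderm, 22.5% and 21.2% of the genes tested and 43.8% together. Of the induced genes tested in the deletion comparison, 5004 in number, 262 rose (5.24%) and 510 fell (10.2%) in HAR123-KO, with a median log2 fold change of -0.20. Of the 3395 repressed genes, 400 rose (11.8%) and 155 fell (4.57%), with a median of 0.23. Among the 12660 genes in neither class, 2.37% rose and 2.13% fell, and the median was 0.01. A further 303 genes were not tested in the ortholog lines, and of these 29.7% rose and 10.2% fell, with a median of 0.28.

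The genes most strongly induced in the ortholog lines did not move as a block. FEZF2, HES5 and LHX5 were among the induced genes that fell, PAX3, WNT1 and NR2F1 among the induced genes that rose, and NR2F2, an orphan receptor, was induced in the ortholog lines and was not called in HAR123-KO, at 228 ± 1.88 CPM in hHAR123 and 246 ± 4.43 CPM in HAR123-KO (log2 fold change 0.16, SE 0.03, adjusted p = 3.35e-05). FOXD3, which the ortholog lines repress on differentiation (log2 fold change -1.33), was a repressed gene that rose.

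**Figure D5:**
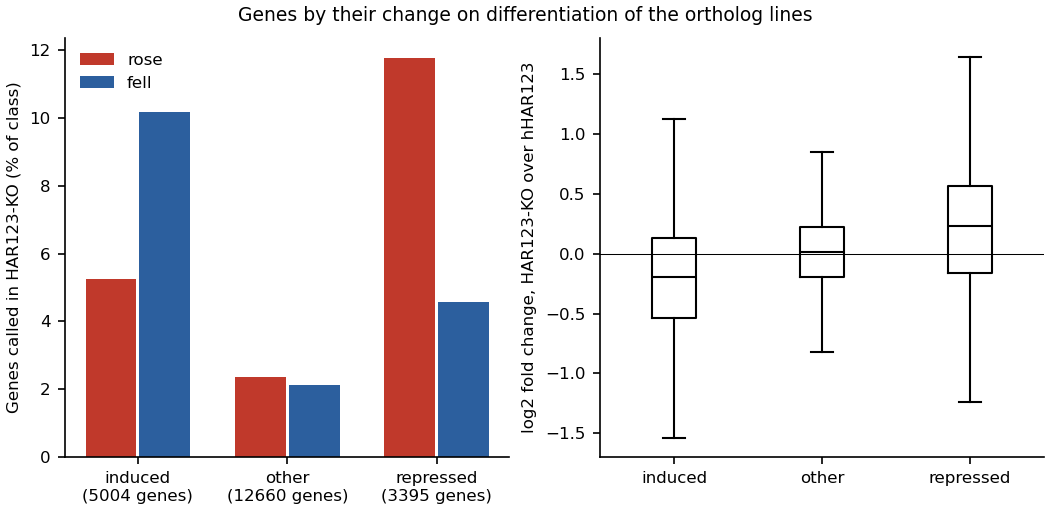
Genes are grouped by their change between hESCs and neuroectoderm in the ortholog lines. Bars give the percentage of each class that rose (red) or fell (blue) in HAR123-KO neuroectoderm, and boxes give the log2 fold change of HAR123-KO over hHAR123 (median, quartiles and whiskers to 1.5 times the interquartile range, outliers not drawn). Induced genes fell in 10.2% and repressed genes rose in 11.8% of cases, against about 2% in either direction for other genes.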

How the data were processed

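RNA of H9 hESCs and day 5 neuroectoderm was depleted of rRNA and sequenced as paired-end, directional libraries. Per the labels and the study's methods, the authors aligned reads to GRCh38 with STAR 2.5.2b and used featureCounts to count them. The deposited table holds unnormalized counts for each gene in 24 libraries. Whether counting used strand is not given in the sources used here. A line break inside the ANK2 entry split it into 3 lines, so it was not used, and 61551 genes remained.

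Libraries were grouped by their labels. Genes were filtered with filterByExpr, scaled by TMM and tested with the quasi-likelihood F test of edgeR 4.0.16 in R 4.3.3, with Benjamini-Hochberg adjustment, and the standard error is the log2 fold change divided by the root of F. CPM are counts scaled by the library total. The script was tested on simulated data. Named genes were HIC1, SMG6, the 12 largest increases and decreases in log2 fold change among called genes whose mean reached 1 CPM, the 8 largest changes either way in level, and up to 4 members of a list in each direction, with others where the sentence turns on their role. The members and the 32 lists were chosen with earlier results of these data known. A few genes that meet these rules are not reported here. Alternatives were DESeq2 1.42.0, its size factors, no filter, another p threshold, a fold-change test, a replicate block, other sets of libraries and leaving out each library.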

Additional observations from a re-analysis of the deposited data

Results flagged for a closer look

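The effect of the deletion differed between neuroectoderm and hESCs by the interaction test for 888 genes with a higher effect in neuroectoderm and 932 with a lower effect (edgeR, adjusted p under 0.01 and absolute log2 difference over 1). The values that follow are the log2 fold change in neuroectoderm less that in hESCs. Genes with at least 1 CPM in hESCs of either genotype and a higher effect in neuroectoderm were FOXD3 (6.36), FOXD3-AS1 (5.53), COL1A2 (2.82), NRP2 (3.52), VCAN (1.04), PEG10 (1.24), HSPG2 (1.31) and CRABP2 (3.23). Those with a lower effect were MIR9-1HG (-5.34), H1-1 (-4.46), FAM107A (-4.81), LRRC3B (-4.61), ST8SIA6 (-4.52), MIAT (-1.09), NAV1 (-1.48), NES (-1.54), CEMIP2 (-1.82), SULF1 (-2.04), SFRP1 (-1.29), SLC6A8 (-1.37) and SOX2 (-1.69).

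Other named genes were under 1 CPM in hESCs of both genotypes, so that their differences rest on few counts at that stage. They were RELN (6.40), PAX7 (6.81), KANK4 (6.06), PRSS56 (7.16), CPED1 (6.10), HDC (5.11), PDYN (6.00) and S100B (5.77) with a higher effect in neuroectoderm, and NR2E1 (-6.43), HSPA6 (-4.83), BARHL2 (-7.45), RAX (-3.79) and MIR7-3HG (-4.76) with a lower effect.

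Genes called in opposite directions at the stages numbered 4 that rose in neuroectoderm and fell in hESCs, GDF7 and ADRA2A among them, and 7 that fell in neuroectoderm and rose in hESCs, among them ACTA1, PDGFB, DUSP8 and TAGLN. ADRA2A, an adrenergic receptor, had log2 fold changes of 2.66 in neuroectoderm and -1.04 in hESCs, and PDGFB, a growth factor, of -1.91 and 1.14.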

How the results depend on the processing

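In the comparison of HAR123-KO with hHAR123, a test against a log2 fold change of 1 (edgeR's glmTreat) called 599 genes that rose and 375 that fell, by construction fewer than 1052 and 966. DESeq2 called 975 and 781, and of the 2018 genes called by edgeR 1676 were called in the same direction and 0 in the opposite one. No filter on low counts gave 1223 and 1092. With each library left out once there were 1042 to 1089 risers and 960 to 986 fallers, 831 to 892 and 875 to 910 genes in the interaction, 811 to 902 and 765 to 807 against the ortholog lines, and 5390 to 5443 induced and 5080 to 5170 repressed genes. Over the alternatives, 116 of 118 counts stayed within 1.5 times their main value. Named and listed genes were followed one by one under the alternatives other than glmTreat, the p threshold of 0.05 and the removal of the 10 most counted genes. None reversed, 15 lost their call under at least 1 of them and 10 gained one. Of the 2018 calls, 974 were kept by glmTreat. CCDC92B beside SMG6 was at -0.98 without hHAR123 replicate 2.

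Libraries of the same replicate number did not deviate together, with correlations of -0.013, -0.008 and -0.012 between the same-numbered libraries of both genotypes. The numbers therefore do not pair the samples, and a fit with the replicate block called 1044 and 959 genes, and 879 and 918 in the interaction. Against the ortholog lines its counts also stayed within 1.5 times the main ones. The median log2 fold change of all genes was 0.0009 with TMM and -0.0098 with DESeq2 size factors. The clone of each library is not known, and a difference between clones cannot be told apart from the genotype.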

Other observations

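Whole gene families and transcript types outside the lists gave these counts, all from the comparison of HAR123-KO with hHAR123 in neuroectoderm. Over all genes tested, 4.92% rose and 4.52% fell. Of 37 collagen genes tested, 11 rose and 1 fell, and their summed level went from 1895 to 2746 CPM. Of 18 ADAMTS proteases, which remodel matrix, 6 rose and 0 fell by edgeR and by DESeq2, with 4 lower at an unadjusted p under 0.05. Among 41 forkhead genes, 6 rose and 2 fell. The 15 genes of lipid and cholesterol synthesis gave no call by edgeR or DESeq2, and each had an unadjusted p under 0.05 and a positive log2 fold change, from 0.08 to 0.92 with a median of 0.38. None of the 56 clustered protocadherin genes and none of the 82 cytosolic ribosomal protein genes was called by either tool, with 24 and 61 at an unadjusted p under 0.05. Of 544 zinc finger genes with a ZNF symbol, 9 rose and 9 fell, ZNF717 the most, at -7.93 on the log2 scale.

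By transcript type, of 4010 long noncoding RNAs tested, 4.14% rose and 7.43% fell (median log2 fold change -0.15), and of 14499 protein-coding genes, 5.67% rose and 3.81% fell (median 0.04). The difference between the types was not tested. By level, of the genes at a mean of 0.3 to 1 CPM 6.79% rose and 8.49% fell (median -0.13), and of those at 10 to 100 CPM 3.17% rose and 2.25% fell (median 0.04), and the part of level in the values by type was not tested.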
